A study of Mus musculus with 32 samples.

Results

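The genes described here encode the lipid-sensing nuclear receptors of the PPAR, LXR and RXR families, the thyroid hormone receptor Thra and the PPAR coactivator Ppargc1a, in the brains of mice that carry human APOE in place of mouse Apoe. They were taken by gene symbol, and all 10 listed symbols had an entry among the 57010 of the count table: Ppara, Ppard, Pparg, Ppargc1a, Nr1h2, Nr1h3, Rxra, Rxrb, Rxrg and Thra. The rule uses the symbol alone. Brain RNA from 32 mice was sequenced in 8 groups of 4, which were E4/4 females and males given D4F, E4/4 females and males given PBS, E3/3 females and males given D4F, and E3/3 females and males given PBS. E4/4 and E3/3 mice are homozygous for human APOE4 and human APOE3, so no group carried mouse Apoe. D4F is a peptide that mimics apolipoprotein A-I, the main protein of HDL, and PBS is its vehicle. Treatment was daily for 12 weeks, begun at 10.5 months of age, and tissue was taken at 13.2 months. The tissue was labelled as brain only and homogenised, so fewer cells of a type and less RNA per cell cannot be told apart.

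PPARs, LXRs and RXRs are transcription factors that sit on DNA as pairs and change the rate of transcription when a lipid binds them. PPARs bind fatty acids and their derivatives, LXRs bind oxysterols made from cholesterol, and RXRs are the shared partner of both families and of the thyroid hormone and retinoic acid receptors. In brain, LXRs are best known for switching on Abca1 and Apoe, which load cholesterol and phospholipid onto HDL-like particles, and PPARs for genes of fatty acid oxidation. The protein encoded by Ppargc1a, PGC-1α, carries no DNA-binding domain of the receptor type and acts by joining PPARs and other factors to raise mitochondrial genes.

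Promoters of Ppard, Rxra and Nr1h2 are shown because these genes were lower together in the comparison of genotypes below. The sequences are those of RefSeq on GRCm38.p6, from 250 bases before to 50 bases after an annotated start. The table of promoters held entries for 9 of the 10 genes, all but Thra, and 15 entries in all. Capitals mark the letters AGGTCA, the core that members of this receptor superfamily recognise, and GGGCGG, the GC box, each on either strand.
Ppard, chr17:28232504-28232803, plus strand: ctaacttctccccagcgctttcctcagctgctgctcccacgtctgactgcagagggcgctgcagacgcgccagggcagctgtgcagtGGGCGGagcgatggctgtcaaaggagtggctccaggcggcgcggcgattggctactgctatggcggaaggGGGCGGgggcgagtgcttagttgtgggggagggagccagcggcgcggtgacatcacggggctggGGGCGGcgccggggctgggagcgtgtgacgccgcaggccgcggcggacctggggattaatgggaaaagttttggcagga
Rxra upstream start, chr2:27676951-27677250, plus strand: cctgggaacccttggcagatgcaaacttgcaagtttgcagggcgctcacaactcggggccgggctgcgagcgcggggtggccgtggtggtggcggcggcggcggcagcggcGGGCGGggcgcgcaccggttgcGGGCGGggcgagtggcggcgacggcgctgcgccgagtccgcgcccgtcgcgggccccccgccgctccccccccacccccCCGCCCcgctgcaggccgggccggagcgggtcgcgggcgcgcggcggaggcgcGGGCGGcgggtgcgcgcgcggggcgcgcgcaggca
Rxra downstream start, chr2:27709042-27709341, plus strand: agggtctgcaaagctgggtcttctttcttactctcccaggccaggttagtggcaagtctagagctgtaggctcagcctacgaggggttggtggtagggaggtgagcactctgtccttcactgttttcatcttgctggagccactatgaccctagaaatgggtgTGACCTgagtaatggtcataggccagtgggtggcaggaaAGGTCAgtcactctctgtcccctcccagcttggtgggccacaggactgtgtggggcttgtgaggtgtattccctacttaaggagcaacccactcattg
Nr1h2, chr7:44553916-44554215, minus strand: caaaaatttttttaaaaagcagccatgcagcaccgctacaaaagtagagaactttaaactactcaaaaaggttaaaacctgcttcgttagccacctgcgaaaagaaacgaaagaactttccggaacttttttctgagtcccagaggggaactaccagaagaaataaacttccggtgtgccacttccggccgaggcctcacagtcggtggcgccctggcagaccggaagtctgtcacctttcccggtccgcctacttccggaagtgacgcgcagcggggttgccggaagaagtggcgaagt
The Ppard window had 3 GC boxes, no AGGTCA and a GC content of 68.3%. The upstream Rxra window had 4 GC boxes, no AGGTCA and a GC content of 83%, while the downstream Rxra window had 2 copies of AGGTCA and no GC box. Neither motif was found in the Nr1h2 window, which had a GC content of 50.7%. Across the 15 windows of the receptor genes, 4 held AGGTCA and 7 held GGGCGG. Among all 32851 promoters, 16.3% held AGGTCA and 35.7% held GGGCGG on either strand, and the median GC content was 52.7%. A match describes the letters in the window and is not evidence of binding.

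On GRCm38, with the gene models of GENCODE M21, Ppara lies at chr15:85734983-85802819, Ppard at chr17:28232700-28301474, Pparg at chr6:115360951-115490399 and Rxrb at chr17:34031812-34038399. Rxra lies at chr2:27676440-27762957, Rxrg at chr1:167598384-167639623 and Thra at chr11:98740638-98769006, all on the plus strand like the first group. Ppargc1a at chr5:51454250-51567726, Nr1h2 at chr7:44549616-44553951 and Nr1h3 at chr2:91184061-91202834 are on the minus strand. All 10 are protein-coding, and all 10 passed the filter on low counts.

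Every gene was compared across libraries in CPM, the count per 1000000 counts (1 M) of the library after TMM scaling, and across genes in CPM per kb of exon. Thra, which encodes thyroid hormone receptor alpha, stood far above the rest with 145 ± 18.6 CPM per kb (SD, n = 32 libraries), and it was above Rxrb in 32 of 32 libraries. Rxrb had 18.1 ± 1.21 CPM per kb, Nr1h2, the widely expressed LXR beta, had 15.7 ± 1.47 CPM per kb, and Rxrg had 15.3 ± 5.42 CPM per kb. Nr1h2 was above Rxrg in 16 of 32 libraries, so these neighbours did not differ beyond their spread. Rxra followed with 6.47 ± 0.829 CPM per kb, Ppargc1a with 5.44 ± 0.620 CPM per kb and Ppard with 3.11 ± 0.661 CPM per kb. Rxra was above Ppargc1a in 26 libraries and Ppargc1a above Ppard in 31 of 32. Pparg, the receptor that drives fat cell formation, had 1.72 ± 0.496 CPM per kb, and Nr1h3, LXR alpha, had 1.52 ± 0.297 CPM per kb, with Pparg the higher in 21 of 32. Ppara, the main PPAR of liver, was lowest with 0.281 ± 0.097 CPM per kb, below Nr1h3 in every library.

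**Figure D1:**
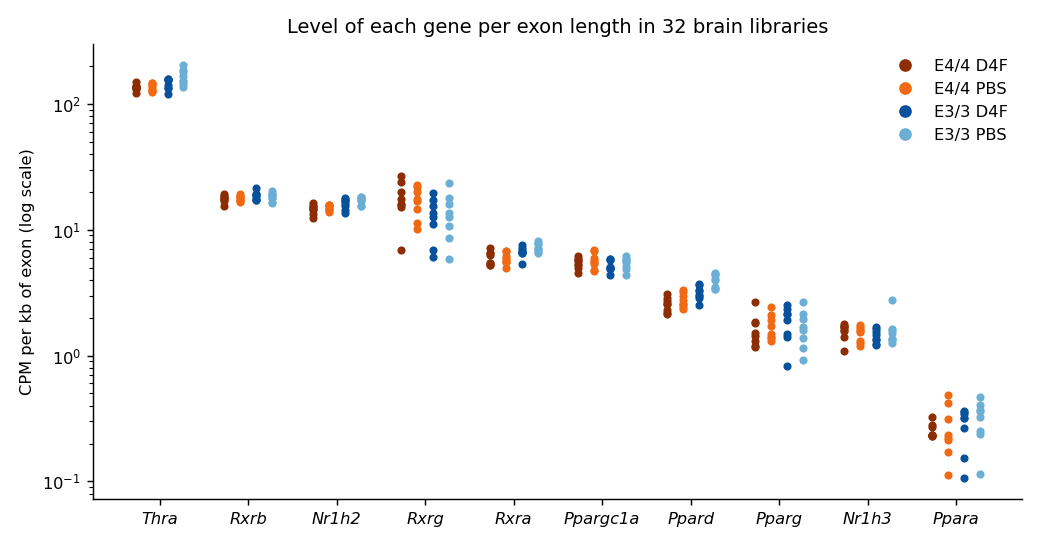
Level of each gene in CPM per kb of exon on a log axis, with 1 point per library and colours for the 4 combinations of genotype and treatment. Thra sits above all other genes and Ppara below them, and the points of Rxrg spread over the widest range among the genes with more than 10 CPM per kb.

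Within families, in shares chosen after the values were seen, Ppard held 61.1 ± 6.04% of the summed PPAR level per kb (SD, n = 32 libraries), and Nr1h3 held 8.87 ± 1.57% of the LXR level. Rxrb held 46.3 ± 6.42% of the RXR level, Rxrg 37.2 ± 8.68% and Rxra 16.5 ± 2.97%. These shares depend on the exon length used, the union of all annotated exons, which is 2297 bases for Rxrg and 5462 for Rxra. Before division by length, Rxrg and Rxra averaged 35.1 and 35.4 CPM. The genes also differed in how far mice of the same group lay apart. Rxrg had a within-group SD of 0.59 on the log2 CPM scale and a 4.51-fold range over the libraries. Ppara had a within-group SD of 0.57, but from 7 to 57 counts per library, and Pparg one of 0.45. The SD was 0.09 for Nr1h2, 0.10 for Rxrb, 0.14 for Thra and for Rxra, and 0.17 for Ppard.

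Library totals ran from 17.8 to 45.1 M counts and fell into 11 libraries under 26 M and 21 above, with none between 23.6 and 28.95 M. The lower class held 2 of 8 E4/4 D4F libraries, 1 of 8 E4/4 PBS libraries, 2 of 8 E3/3 D4F libraries and 6 of 8 E3/3 PBS libraries. The library numbers of E4/4 mice (18643 to 18793) and of E3/3 mice (19002 to 19074) do not overlap, so the genotype and whatever the numbers stand for cannot be told apart. Mouse Apoe averaged between 2.31 and 2.73 CPM in the 4 combinations of genotype and treatment, and the human gene has no readout in these counts. Neuron, astrocyte, oligodendrocyte and microglia markers were all detected, and none of 7 adipocyte markers passed the filter on low counts, their sum reaching at most 1.51 CPM.

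The first comparison asked how the receptor genes differ between E4/4 and E3/3 brain without the peptide. In PBS mice, 4 of the 10 genes were lower in E4/4 than in E3/3 and none was higher, at an adjusted p below 0.05 over 20298 tested genes. Over all tested genes, 10.5% were called lower and 9.89% higher, and 20.4% in either direction. Ppard fell most, followed by Rxra, Thra and Nr1h2. The median log2 fold change of the 10 genes was -0.13, against 0.02 over all tested genes. All tests were edgeR quasi-likelihood tests with Benjamini-Hochberg adjustment over all tested genes, with 4 mice of each sex per arm and the sexes weighted equally.

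Among the PPARs, Ppard, which encodes the broadly expressed PPAR delta, had 17.8, 19.5, 20.8 and 24.8 CPM in E4/4 PBS females and 18.4, 19.2, 22.3 and 23.9 CPM in E4/4 PBS males. It had 25.6, 26.5, 33.2 and 34.1 CPM in E3/3 PBS females and 25.3, 29.99, 30.5 and 32.96 CPM in E3/3 PBS males. All 8 E4/4 PBS libraries lay below all 8 E3/3 PBS libraries, in both sexes. The share of all tested genes that separate in this way is not given here, in a comparison that called 20.4% of them. The separation is therefore not shown to be particular to Ppard. The log2 fold change was -0.52 (SE 0.08, 95% interval -0.69 to -0.34, adjusted p = 0.000139), and Ppard ranked 122 by p among the tested genes. Ppara had 0.435, 0.876 and 1.88 CPM at the lowest, median and highest E4/4 PBS library and 0.436, 1.33 and 1.79 CPM in E3/3 PBS. Its log2 fold change of -0.24 (SE 0.25, interval -0.76 to 0.27) did not pass the test (adjusted p = 0.542). Pparg ran from 3.84 to 7.19 CPM, median 4.70, in E4/4 PBS mice and from 2.74 to 7.90 CPM, median 4.82, in E3/3 PBS mice. Its log2 fold change was 0.02 (interval -0.40 to 0.44, adjusted p = 0.959), an interval wide enough to hold a change of the size seen for Rxra. Ppargc1a ranged from 31.3 to 45.6 CPM, median 36.7, in E4/4 PBS mice and from 28.9 to 40.7 CPM, median 36.7, in E3/3 PBS mice, with a log2 fold change of 0.08 (interval -0.08 to 0.23, adjusted p = 0.530).

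**Figure D2:**
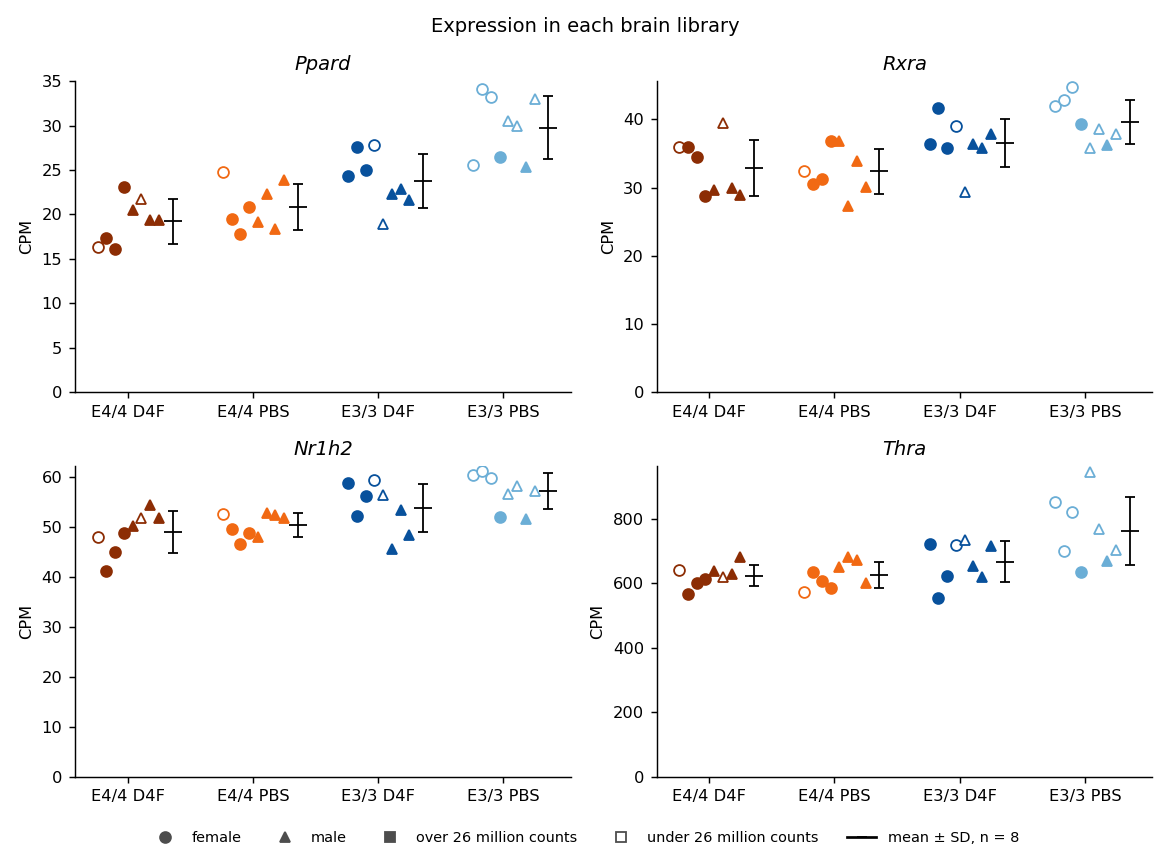
CPM of Ppard, Rxra, Nr1h2 and Thra in each of 32 libraries, grouped by genotype and treatment, with circles for females, triangles for males, open symbols for libraries under 26 M counts and bars for the mean ± SD of 8 mice. The E4/4 PBS and E3/3 PBS points of Ppard do not overlap, while those of the other genes shown do. The share of all tested genes without overlap is not given. Of the 8 E3/3 PBS symbols, 6 are open.

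Among the LXRs, Nr1h2 had 46.7, 50.7 and 52.8 CPM at the lowest, median and highest E4/4 PBS library and 51.7, 57.8 and 61.3 CPM in E3/3 PBS. The ranges overlapped, though all 8 E4/4 PBS libraries lay below the E3/3 PBS median and 6 of 8 E3/3 PBS libraries lay above every E4/4 PBS library. The log2 fold change of Nr1h2 was -0.18 (SE 0.05, interval -0.29 to -0.08, adjusted p = 0.0107). Nr1h3, the LXR known from macrophages and liver, ran from 3.01 to 4.41 CPM, median 3.88, in E4/4 PBS mice and from 3.17 to 6.97 CPM, median 3.61, in E3/3 PBS mice. Its log2 fold change of -0.09 (SE 0.13, interval -0.35 to 0.18) was not past the threshold (adjusted p = 0.694). Nr1h3 shares 34 exon bases with the predicted transcript Gm13783 on the same strand.

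Among the RXRs, Rxra had 27.3, 31.8 and 36.8 CPM at the lowest, median and highest E4/4 PBS library and 35.8, 38.9 and 44.8 CPM in E3/3 PBS. The groups overlapped slightly, with 6 of 8 E4/4 PBS libraries below every E3/3 PBS library. The log2 fold change of Rxra was -0.29 (SE 0.07, interval -0.44 to -0.15, adjusted p = 0.00425). Rxrb, its close relative, had 66.2 to 76.4 CPM, median 71.2, in E4/4 PBS mice and 64.8 to 81.0 CPM, median 73.0, in E3/3 PBS mice. Its log2 fold change was -0.04 with an interval of -0.14 to 0.07 (adjusted p = 0.685). Rxrg ranged from 23.5 to 51.9 CPM, median 39.6, in E4/4 PBS mice and from 13.5 to 53.9 CPM, median 29.9, in E3/3 PBS mice. The log2 fold change of Rxrg was 0.32 with an SE of 0.28 (interval -0.26 to 0.90, adjusted p = 0.463), the widest interval of the 10 genes.

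Thra had 572, 621 and 682 CPM at the lowest, median and highest E4/4 PBS library and 634, 736 and 946 CPM in E3/3 PBS. All 8 E4/4 PBS libraries lay below the E3/3 PBS median, and the ranges overlapped. The log2 fold change of Thra was -0.29 (SE 0.07, interval -0.43 to -0.14, adjusted p = 0.0046). The end of Thra lies over the end of Nr1d1, which encodes the circadian repressor REV-ERB alpha and is read from the opposite strand. They share 263 exon bases, 5.70% of the exon length of Thra, and Nr1d1 was also lower in E4/4 PBS mice (82.3, 94.3 and 116 CPM at the lowest, median and highest library) than in E3/3 PBS mice (113, 129 and 168 CPM), with a log2 fold change of -0.45. The strand setting of the counting is not given in the sources used here, so reads in the shared stretch cannot be told apart.

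**Figure D3:**
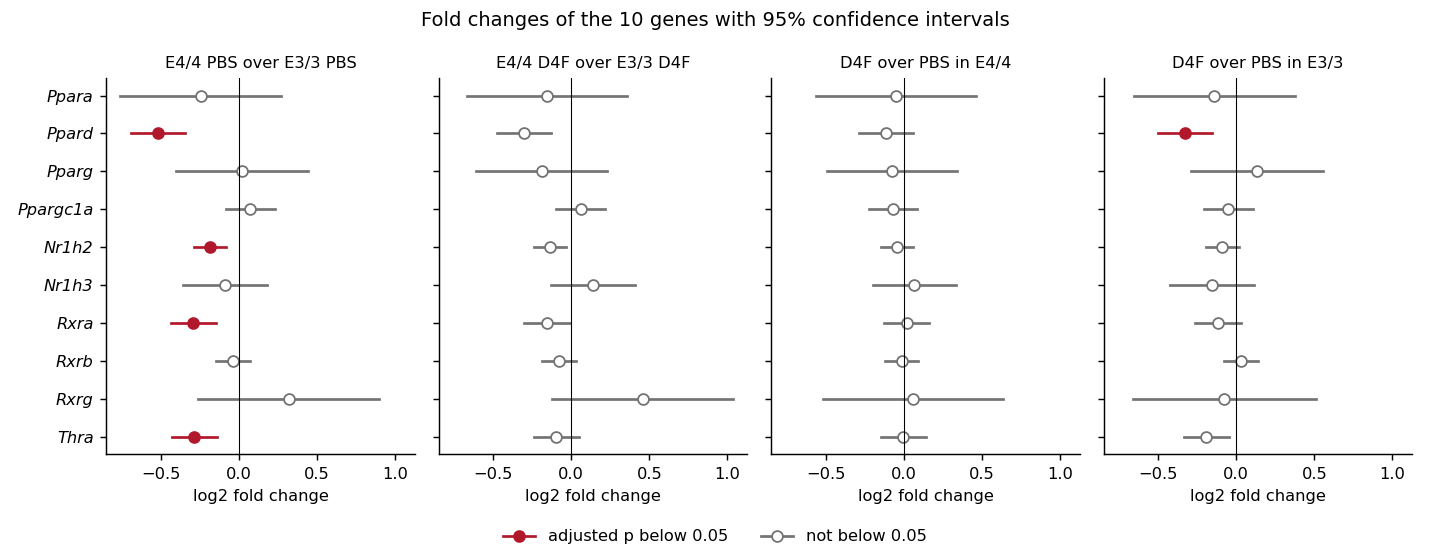
Log2 fold changes of the 10 genes with 95% confidence intervals in 4 comparisons, red where the adjusted p is below 0.05. In PBS mice Ppard, Nr1h2, Rxra and Thra lie below 0, and with D4F over PBS in E3/3 mice Ppard alone is marked.

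Depth, base composition and cell markers were set beside these differences. With depth class as a covariate, Ppard kept its call (log2 fold change -0.45, adjusted p = 0.0069), and Rxra (-0.25, adjusted p = 0.0579), Thra (-0.20, adjusted p = 0.104) and Nr1h2 (-0.10, adjusted p = 0.205) did not. Among the libraries over 26 M, where E3/3 PBS has 2 mice, no gene of the 10 was called and Ppard had -0.34 (adjusted p = 0.153). In those libraries Ppard ran from 17.8 to 23.9 CPM in 7 E4/4 PBS mice and was 25.3 and 26.5 CPM in 2 E3/3 PBS mice. Pooled over their annotated transcripts, Ppard, Rxra, Thra and Nr1h2 have GC contents of 57.9%, 57.9%, 57.9% and 60.9%. The median over 19177 tested genes with a value was 49.8%. Of the genes not called, Rxrb (60.5%), Nr1h3 (57.1%), Rxrg (54.2%) and Ppara (51.9%) lie above that median. Pparg (46.4%) and Ppargc1a (45.5%) lie below it. The part of base composition in the genotype differences was not tested. For each library, the deviation of a gene from its mean log2 CPM over all libraries was regressed on GC content, leaving out low genes. This slope, relative to the average library, had a median of -0.0076 per percent in E4/4 PBS libraries and 0.0144 in E3/3 PBS libraries (exact permutation test, two-sided, p adjusted over 56 tests = 0.0261). After removal of GC and length trends, Ppard kept its call at -0.35 (adjusted p = 0.00263), Rxra and Thra had -0.12 and -0.11 and were not called, Nr1h2 turned to 0.02 and Rxrb was called higher in E4/4 at 0.16 (adjusted p = 0.0223).

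**Figure D4:**
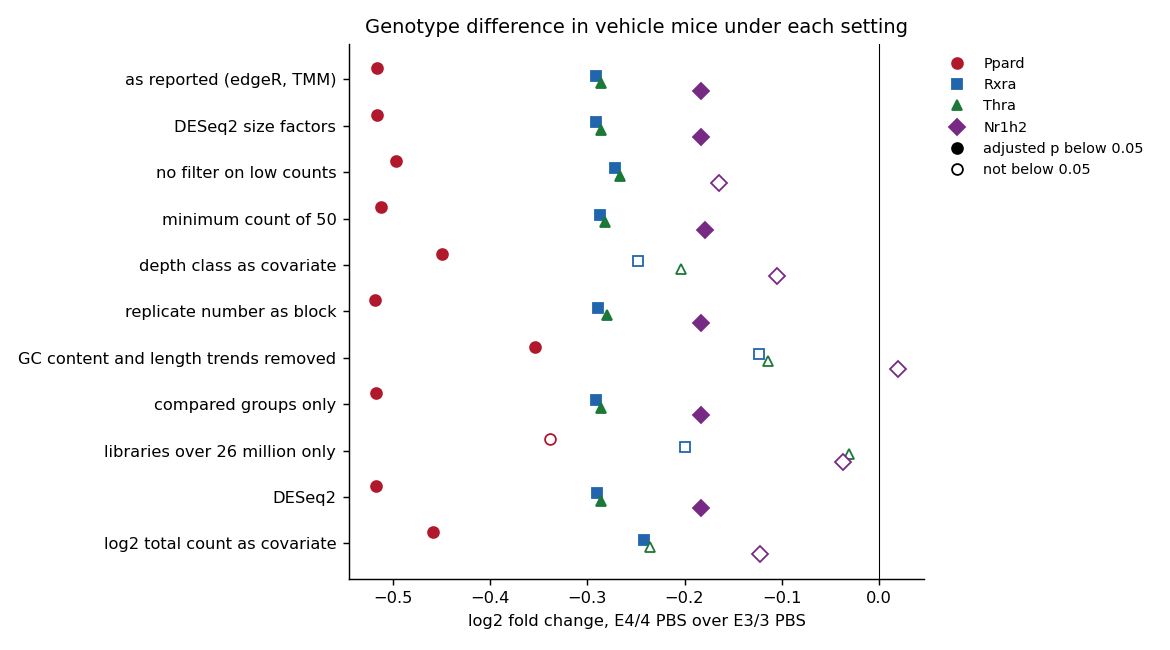
Log2 fold change of E4/4 PBS over E3/3 PBS for Ppard, Rxra, Thra and Nr1h2 under each way of processing, filled where the adjusted p is below 0.05. Ppard stays between -0.52 and -0.34 and is open only for libraries over 26 M, while Nr1h2 reaches 0.02 once GC and length trends are removed.

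Of 12 neuronal markers, 8 were called lower in E4/4 PBS mice and none higher, where 10.5% of all tested genes were called lower and 9.89% higher. The same shares apply to the other marker lists given here for PBS mice. Their summed level ran from 8776 to 13044 CPM, median 10040, in E4/4 PBS libraries and from 10342 to 13465 CPM, median 12626, in E3/3 PBS libraries (exact permutation test, two-sided, p adjusted over 56 tests = 0.0522). Of 11 oligodendrocyte markers, 5 were called higher and none lower, with sums of 4385 to 6002 CPM, median 5288, in E4/4 PBS libraries and 4455 to 5540 CPM, median 4798, in E3/3 PBS libraries (exact permutation test, two-sided, p adjusted over 56 tests = 0.388). Of 6 interneuron markers, 1 was called higher and 1 lower, with a median log2 fold change of -0.12, while the median of their sums differed in the other direction, with sums from 859 to 1461 CPM, median 1166, in E4/4 PBS libraries and from 854 to 1154 CPM, median 928, in E3/3 PBS libraries (exact permutation test, two-sided, p adjusted over 56 tests = 0.128). All 5 red cell markers were called lower. Their sums ran from 3.66 to 15.01 CPM, median 6.81, in E4/4 PBS libraries. In E3/3 PBS libraries they ran from 7.67 to 113 CPM, median 30.7 (exact permutation test, two-sided, p adjusted over 56 tests = 0.0493). Per 1000 CPM of summed neuronal markers, a measure chosen after the values were seen, Ppard had 2.05 ± 0.177 in E4/4 PBS mice and 2.42 ± 0.201 in E3/3 PBS mice (SD, n = 8). On the same measure Rxra had 3.21 ± 0.533 in E4/4 PBS mice and 3.25 ± 0.426 in E3/3 PBS mice, Thra had 62.3 ± 9.71 in E4/4 PBS mice and 62.5 ± 10.9 in E3/3 PBS mice, and Nr1h2 had 4.98 ± 0.469 in E4/4 PBS mice and 4.68 ± 0.541 in E3/3 PBS mice. The part of cell makeup in the genotype differences was not tested. The CPM of Ppard over that of Rxrb in the same library, also chosen after the values were seen, ran from 0.262 to 0.330 in E4/4 PBS mice and from 0.316 to 0.517 in E3/3 PBS mice.

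Under D4F, none of the 10 genes differed between genotypes at the adjusted threshold, and 1 of 20298 genes did (0.00493%). At an unadjusted p below 0.05, 2801 genes and 3 of the 10 passed. Ppard ran from 16.1 to 23.1 CPM, median 19.3, in E4/4 D4F mice and from 18.9 to 27.8 CPM, median 23.6, in E3/3 D4F mice, with a log2 fold change of -0.30 (SE 0.08, interval -0.47 to -0.13, adjusted p = 0.129). Nr1h2 had 41.3 to 54.4 CPM, median 49.6, in E4/4 D4F mice and 45.7 to 59.5 CPM, median 54.8, in E3/3 D4F mice (log2 fold change -0.14, adjusted p = 0.225). Rxra had 28.8 to 39.5 CPM, median 32.2, in E4/4 D4F mice and 29.3 to 41.7 CPM, median 36.4, in E3/3 D4F mice (log2 fold change -0.15, adjusted p = 0.329). The groups overlapped for all of them. DESeq2 called 198 genes here and none of the 10.

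The next comparisons asked whether D4F moved the receptor genes within a genotype. In E4/4 mice, D4F moved none of the 10 genes at the threshold, nor any of the 20298 tested by edgeR or DESeq2, and 382 genes but none of the 10 had an unadjusted p below 0.05. The log2 fold changes ran from -0.11 for Ppard (interval -0.28 to 0.06) to 0.07 for Nr1h3 (interval -0.20 to 0.33). Intervals were narrowest for Nr1h2, at -0.15 to 0.06, and for Rxrb, at -0.12 to 0.09, and widest for Rxrg, at -0.51 to 0.64. Thra had 567, 624 and 683 CPM at the lowest, median and highest E4/4 D4F library and 572, 621 and 682 CPM in E4/4 PBS, which is the same range within a few CPM.

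In E3/3 mice, Ppard was the only gene of the 10 called, and it was lower under D4F. Over all tested genes 1.44% were called lower and 1.81% higher, 3.25% in either direction. Ppard had 24.3, 24.96, 27.6 and 27.8 CPM in E3/3 D4F females and 18.9, 21.6, 22.3 and 22.9 CPM in E3/3 D4F males, set against the E3/3 PBS mice given above. All 8 E3/3 D4F libraries lay below the E3/3 PBS median of 30.2 CPM and 6 of 8 lay below every E3/3 PBS library, all 4 of the males among them. The log2 fold change of Ppard was -0.33 (SE 0.08, interval -0.50 to -0.16, adjusted p = 0.0288). Thra had 555, 684 and 733 CPM at the lowest, median and highest E3/3 D4F library, and its log2 fold change of -0.19 (SE 0.07) did not pass (adjusted p = 0.117). For the other genes the log2 fold change lay between -0.16 for Nr1h3 and 0.13 for Pparg. The Ppard call was lost with depth class as a covariate (-0.27, adjusted p = 0.211), after removal of GC and length trends (-0.24, adjusted p = 0.0740), in a fit of E3/3 mice alone (adjusted p = 0.136), among libraries over 26 M (-0.10) and on leaving out any of 9 libraries, 1 at a time, 4 from E3/3 D4F and 5 from E3/3 PBS mice, with adjusted p up to 0.0900. This comparison and that of genotype in PBS mice share the E3/3 PBS libraries.

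Some markers of astrocytes and endothelium were also called lower under D4F in E3/3 mice, where 1.44% of all tested genes were called lower and 1.81% higher. These marker calls were lost with depth class as a covariate and in a fit of E3/3 mice alone, where no gene was called. All 12 astrocyte markers had a log2 fold change below 0 (median -0.19) and 2 were called lower, with sums of 3160 to 4833 CPM, median 4032, in E3/3 D4F libraries and 4143 to 5294 CPM, median 4608, in E3/3 PBS libraries (exact permutation test, two-sided, p adjusted over 56 tests = 0.0952). Of 10 endothelial markers, 8 had a log2 fold change below 0 (median -0.30) and 4 were called lower, with sums of 216 to 280.4 CPM, median 241, in E3/3 D4F libraries and 246 to 336 CPM, median 282, in E3/3 PBS libraries (exact permutation test, two-sided, p adjusted over 56 tests = 0.0684). No marker was called higher in either list, and none of 12 neuronal markers was called. Their part in the Ppard difference, and in those of the other genes called there, was not tested.

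The difference between the D4F effects in the 2 genotypes was tested directly as an interaction. None of the 10 genes and none of 20298 genes passed in edgeR, where 2113 genes and none of the 10 had an unadjusted p below 0.05, and DESeq2 called 12 genes and none of the 10. The interaction of Ppard was 0.22 on the log2 scale (SE 0.12, interval -0.03 to 0.46, adjusted p = 0.543), and that of Thra was 0.19 (SE 0.10, interval -0.01 to 0.39, adjusted p = 0.517). A call in E3/3 mice and none in E4/4 mice is therefore not shown to be a difference between the genotypes.

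A test of any difference among the 8 groups called Ppard (adjusted p = 0.000561), Nr1h2 (adjusted p = 0.0151) and Rxra (adjusted p = 0.0358), where 8.70% of all tested genes were called, and Thra just missed the threshold (adjusted p = 0.0618). Ppard group means ran from 18.2 ± 3.30 CPM in E4/4 D4F females to 29.9 ± 4.44 CPM in E3/3 PBS females (SD, n = 4). Females and males over all groups differed at the threshold in none of the 10 genes and in 0.0739% of the tested genes, 0.0394% higher and 0.0345% lower in females. Ppargc1a had a log2 fold change of females over males of -0.14 (SE 0.05, adjusted p = 0.871), Rxra of 0.11 (SE 0.05, adjusted p = 0.910) and Ppara of 0.32 (SE 0.18, adjusted p = 0.914). The genotype difference in PBS mice was not shown to depend on sex for any of the 10, nor for any of the 20298 genes tested by edgeR or DESeq2 with 1090 at an unadjusted p below 0.05, and the female minus male difference was -0.03 on the log2 scale for Ppard (interval -0.37 to 0.31).

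Rxrg, the RXR known to be strong in striatum, varied more between mice of a group than any other of the 10 genes. Male E4/4 D4F mice had 16.0, 36.4, 36.7 and 60.9 CPM and male E3/3 PBS mice had 13.5, 19.8, 37.0 and 40.8 CPM. The genes most alike to it over the 32 libraries, among 11087 whose mean log2 CPM was 3 or more, were Syndig1l, Rasgrp2 and Adora2a, each with r = 0.97, and Adora2a encodes the adenosine receptor of striatal indirect-pathway neurons. The sum of 12 striatal markers ran from 1028 to 4163 CPM in E4/4 D4F mice, from 1481 to 4235 CPM in E4/4 PBS mice, from 1096 to 3722 CPM in E3/3 D4F mice and from 920 to 4134 CPM in E3/3 PBS mice. Rxrg followed this sum with Pearson's r = 0.96 and Spearman's rho = 0.95 on log2 values over 32 libraries, and r was 0.94 without the 2 libraries farthest from the median. Within the lower depth class r was 0.98 and within the higher 0.95, and within the 4 combinations of genotype and treatment it ran from 0.95 to 0.99. This relation was computed after the likeness was seen and is given as a description with no test, since Adora2a is one of the 12 summed markers. The other 11 markers each had r between 0.84 and 0.96 with Rxrg. Per 1000 CPM of striatal markers Rxrg had 14.5 ± 1.22 CPM in E4/4 D4F mice, 15.02 ± 2.11 CPM in E4/4 PBS mice, 13.6 ± 1.84 CPM in E3/3 D4F mice and 14.5 ± 1.79 CPM in E3/3 PBS mice (SD, n = 8). No striatal marker was called in PBS mice between genotypes, though all 12 had a log2 fold change above 0, with a median of 0.34.

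**Figure D5:**
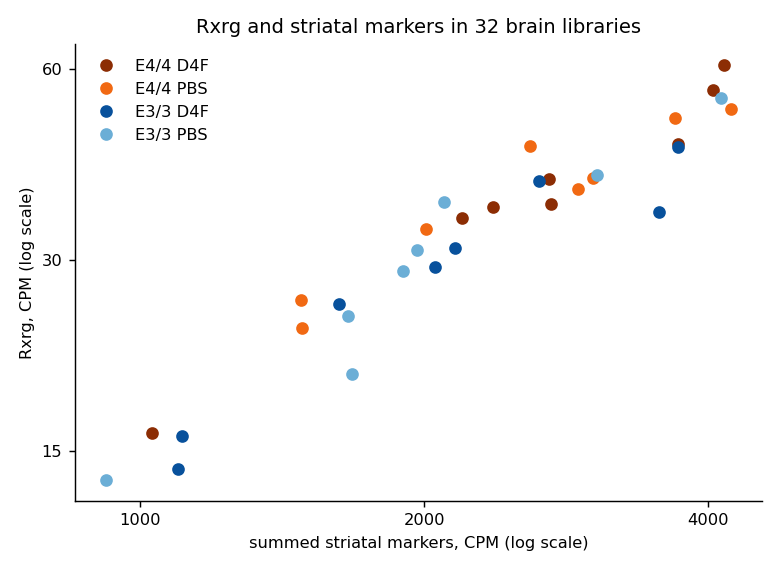
CPM of Rxrg against the summed CPM of 12 striatal markers in each of 32 libraries, both on log axes, coloured by genotype and treatment. The 4 combinations lie along the same line, which spans about 920 to 4235 CPM of striatal markers.

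The other genes had looser company over the same 32 libraries, whose differences in depth and base composition all genes share. Most alike to Ppard were Zmiz2, Shank1 and Grin1 (r = 0.94, 0.94 and 0.93), and Shank1 and Grin1 encode a postsynaptic scaffold and the obligatory NMDA receptor subunit. Within groups, with the group means removed, these correlations were 0.82, 0.85 and 0.81. Thra was most alike to Foxp4, Dennd1a and Gpi1 (r = 0.93, 0.92 and 0.91), and Nr1h2 to Tmem259, Cdk5r2 and Gipc1 (r = 0.86 each). Rxra went with Lzts3, Copg1 and Scn2b (r = 0.80, 0.78 and 0.77), and Rxrb with Zc3hc1, Rnf187 and Ndufs7 (r = 0.76, 0.73 and 0.73). Ppara went with Plxna4, Abr and Pcdhga6 (r = 0.84, 0.79 and 0.77), Pparg with Ntm, Medag and Zmat4 (r = 0.81, 0.79 and 0.78), Ppargc1a with Chrm2, Msi2 and Sema3c (r = 0.70, 0.69 and 0.69), and Nr1h3 with Slc13a3, Myl9 and Bgn (r = 0.73, 0.73 and 0.71). Among the 10 genes themselves, the highest correlations over 32 libraries were Ppard with Nr1h2 (0.74), Nr1h2 with Thra (0.64) and Ppard with Rxra (0.55), and the lowest was Pparg with Rxrg (-0.53).

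Of 30 other nuclear receptors tested in PBS mice, 2 were lower in E4/4 and none higher, where 10.5% of all tested genes were called lower and 9.89% higher. Rara, which encodes the retinoic acid receptor alpha that pairs with RXRs, had 8.45, 11.1 and 15.1 CPM at the lowest, median and highest E4/4 PBS library and 13.7, 16.6 and 19.8 CPM in E3/3 PBS, and its log2 fold change was -0.59 (SE 0.11, adjusted p = 0.000477). Nr1d1 was the other. Of 17 coregulators, 3 were called, against 20.4% of all tested genes, a share near that background. Of these 2 were higher, Sirt1 (log2 fold change 0.45), the deacetylase that acts on PGC-1α, and Tbl1xr1 (0.20), a corepressor exchange factor, and 1 was lower, Carm1 (-0.20), a coactivator methyltransferase.

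Target genes of the receptors were called in both directions, as were the tested genes as a whole. Their counts are to be read against that background and are not a result about these lists. Of 17 tested LXR targets, 3 were higher in E4/4 PBS mice and 2 lower, with a median log2 fold change of 0.02, against 0.02 over all tested genes, of which 9.89% were called higher and 10.5% lower. The same shares apply to the PPAR targets. Abca1, the exporter that loads cholesterol onto apolipoproteins, had 31.8, 33.9 and 45.8 CPM at the lowest, median and highest E4/4 PBS library. In E3/3 PBS it had 18.7, 21.6 and 28.9 CPM, without overlap. The share of all tested genes that also do not overlap is not given here. The log2 fold change of Abca1 was 0.66 (SE 0.08, adjusted p = 1.72e-05). Elovl5, a fatty acid elongase, was higher at 0.25, as was the sphingomyelinase-like Smpdl3a, and Fasn and Acaca, enzymes of fatty acid synthesis, were lower at -0.26 and -0.25. Of 23 targets of PPAR alpha and delta, 2 were higher, Ehhadh (0.42) and Hadhb (0.17) of fatty acid oxidation, and none lower, with a median of 0.07. Of 13 targets of PPAR gamma, 3 were lower, the lipases Pnpla2 (-0.51) and Mgll (-0.33) and the glycerol-3-phosphate dehydrogenase Gpd1 (-0.47), and none higher, with a median of -0.11.

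The counts in the next lists are to be read against the 20.4% of all tested genes called in either direction (9.89% higher and 10.5% lower), and none is a result about its list. Of 18 genes of the PGC-1α programme, Gabpa (0.24), a factor for mitochondrial genes, was higher, and the neuronal Cplx1 (-0.34) and Nefh (-0.42) were lower. Of 11 thyroid hormone response genes, Nrgn (-0.88), a postsynaptic calmodulin binder, and Hr (-0.67), a corepressor of the thyroid hormone receptor, were lower and none was higher. Of 8 tested genes of thyroid hormone transport and conversion, 2 amino acid and hormone transporters were lower, Slc7a8 (-0.41) and Slc7a5 (-0.27). Of 19 genes of ligand supply, the fatty acid binder of astrocytes and progenitors Fabp7 (1.38) and the retinol dehydrogenase Rdh10 (0.32) were higher, and the fatty acid binder Fabp3 (-0.40) and Cyp46a1 (-0.34), which makes the main oxysterol of brain, were lower. Of the 25 genes picked from these lists by smallest p that were called in PBS mice, all kept their direction and 11 kept their call with depth class as a covariate, 12 with GC and length trends removed and 1, Elovl5, among libraries over 26 M.

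Under D4F these lists held no gene that differed between genotypes, nor did D4F in E4/4 mice move any. In E3/3 mice, where 1.44% of all tested genes were called lower and 1.81% higher, D4F lowered Nr2e1 (log2 fold change -0.40, adjusted p = 0.0212), an orphan receptor of neural stem cells, and Hadha (-0.25, adjusted p = 0.0221), the partner subunit of Hadhb. It raised Sod2 (0.18, adjusted p = 0.0274), the mitochondrial superoxide dismutase, and no LXR or PPAR gamma target was called. All 3 calls were lost with depth class as a covariate and in a fit of E3/3 mice alone.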

How the data were processed

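Per the labels' protocols, RNA came from brain homogenate (a kit meant for fatty or fibrous tissue), and stranded mRNA libraries were sequenced as 150-base read pairs, stated as about 20 M per sample. Whole-number counts per gene name were deposited by the authors. Per the submitters' processing notes they used Trimmomatic, HISAT2, featureCounts and build GRCm38. Not given in the sources used here were versions, strand setting and annotation. Totals were 17.8 to 45.1 M per library, and precision for low genes follows their counts.

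Columns were matched to mice by the library number in the column header, and titles gave genotype, sex and treatment. Counts were fitted with edgeR 4.0.16 in R 4.3.3 (TMM scaling, filterByExpr with minimum count 10 and minimum total 15, 1 coefficient per group, quasi-likelihood F tests), giving 20298 tested genes. Comparisons average the sexes, and genes were called at a Benjamini-Hochberg adjusted p below 0.05. Mice are the replicates. CPM used TMM-scaled totals. Marker sums were compared by exact permutation tests, adjusted over 56 tests. GENCODE M21 (GRCm38) gave exon length, GC content and coordinates by gene symbol. Exon length is the union of all annotated exons of a gene, and GC content is pooled over its annotated transcripts. Alternatives were DESeq2 1.42.0 and its size factors, other count filters, depth class or log2 total count as covariates, GC and length offsets, the compared groups alone, libraries over 26 M alone, a replicate block, and leaving out each library. The log2 total covariate was chosen after seeing the data. The code was tested on simulated data. Genes named are all 10 receptor genes, up to 4 genes with the smallest p of each list for genotype in PBS mice and for D4F in E3/3 mice, and the 3 most alike genes of each receptor gene. Genes not reported here were left out of the lists. Smpdl3a was named in addition, after its value was seen. The receptor genes and all lists were chosen with earlier results of these data known.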

Additional observations from a re-analysis of the deposited data

Results flagged for a closer look

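Of 120 groups of 4 or 8 libraries checked among the receptor genes, 6 held a library whose gap to its nearest neighbour was large for the group's range. Chance flags about 1 in 20 groups. Ppara reached 1.24 CPM in male E4/4 D4F replicate 4, and the next library had 0.904 CPM. Pparg reached 7.89 CPM in male E4/4 D4F replicate 1, the highest of the 8 E4/4 D4F mice, and the next had 5.47 CPM. Nr1h2 was low in female E3/3 PBS replicate 4, at 52.0 CPM, with the next at 59.8 CPM, and this is a library over 26 M counts. Nr1h3 was low in female E4/4 D4F replicate 4, at 2.76 CPM, with the next at 4.25 CPM. Nr1h3 was high in female E3/3 PBS replicate 1, at 6.97 CPM, against 4.09 CPM in the next of the 8 E3/3 PBS mice. Rxra reached 39.5 CPM in male E4/4 D4F replicate 2, against 29.9 CPM in the next.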

How the results depend on the processing

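Of the 10 genes, the number called for genotype in PBS mice was 4, and it was 3 without a filter on low counts, 1 with depth class in the model, 2 with GC and length trends removed, 0 among libraries over 26 M, 2 with log2 of the total count in the model, and 4 in every fit without 1 library. With GC and length trends removed Nr1h2 turned to 0.019 and Rxrb to 0.16 (adjusted p = 0.0223). For D4F in E3/3 mice 1 gene was called, and 0 with depth class, with GC and length trends removed, with the compared groups only, among libraries over 26 M and with log2 of the total count, and 0 to 2 without 1 library. Over the 8 groups 3 were called, and 1 without a filter, 1 with depth class, 2 with the replicate block, 1 with GC and length trends removed, 2 with log2 of the total count, and 1 to 4 without 1 library. All genes called for genotype in PBS mice numbered 4137, and 1286 with depth class, 2720 with GC and length trends removed, 42 among libraries over 26 M, 1752 with log2 of the total count, and 3125 to 4871 without 1 library. For D4F in E3/3 mice 659 were called, and 367 without a filter, 0 with depth class, with the compared groups only and among libraries over 26 M, 1359 by DESeq2, 154 with log2 of the total count, and 99 to 2188 without 1 library. For genotype under D4F 1 was called, and 0 with DESeq2 size factors, with GC and length trends removed, among libraries over 26 M and with log2 of the total count, 2 without a filter or with a minimum count of 50, 27 with depth class, 3 with the replicate block, 58 with the compared groups only, 198 by DESeq2, and 0 to 22 without 1 library. The interaction had 12 by DESeq2 and 0 to 303 without 1 library, against 0, and genotype by sex had 1 with the compared groups only and 0 to 39 without 1 library, against 0. The 15 genes called for sex became 23 by DESeq2 and 13 to 21 without 1 library. The causes were not tested.

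Thra was called for D4F in E3/3 mice in 1 of 32 fits without 1 library, at adjusted p = 0.0350. The call of Ppard there was lost without each of 9 libraries, which were female E3/3 PBS replicates 2 and 3, male E3/3 PBS replicates 1, 2 and 4, female E3/3 D4F replicates 1, 2 and 3, and male E3/3 D4F replicate 1, with adjusted p up to 0.0900. The groups share replicate numbers 1 to 4. The deviations of 32 same-numbered pairs correlated between -0.62 and 0.54, with 10 above 0.1. Differently numbered mice were not set beside them, so the check cannot decide whether the numbers pair the mice. Ppara, at 7 to 57 counts per library, was not tested with a minimum count of 50.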
